A study of Saccharomyces cerevisiae with 20 samples.

Results

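The 4 libraries of the *ROF1* overexpression strain were set against the 16 libraries of 4 other overexpression strains, singly and through their mean, out of 20 libraries in the series. The tested strain carried extra *ROF1* (YHR177W), and the others carried extra *SFL1*, *HEK2*, *SAN1*, or *TOS8*, with 4 replicate samples each. All 5 strains are the haploid *S. cerevisiae* strain F45, which is *MAT*a, has *HO* replaced by *hphMX6*, carries an *SPS2*:*EGFP*:*natMX4* reporter, and has an unmapped serine auxotrophy. Each gene sat under its native promoter on a low-copy (centromeric) plasmid of the MoBY collection, kept under G418, and each strain is a single stock, so its 4 libraries are repeat samples of pooled colonies and the p-values measure the spread among such samples. All colonies were grown for 4 days at 30 °C on YPD agar with 2% glucose. Their polyadenylated RNA was sequenced by strand, and the values are read pairs per annotated feature. The F45 vector control was not analysed here, so each difference is one between overexpression strains.

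Rof1 belongs to the WOPR family of DNA-binding proteins, which it shares with its paralog Mit1 and with Wor1, the white-opaque master regulator of *Candida albicans*. In *S. cerevisiae*, wrinkled ("fluffy") colonies depend on Flo11, a mucin-like cell wall protein that makes cells adhere to each other and to surfaces. *FLO11* integrates signals from the filamentation mitogen-activated protein kinase (MAPK) pathway, in which the kinase Kss1 acts on the transcription factors Ste12 and Tec1, from protein kinase A, and from repressors such as Sfl1. The pheromone response shares Ste12 and several kinases with that pathway. Of the other plasmid genes, *SFL1* encodes a repressor of flocculin genes, *HEK2* an RNA-binding protein, *SAN1* a ubiquitin ligase for nuclear proteins, and *TOS8* a homeodomain protein.

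A total of 6575 features with systematic ORF names were taken as ORFs, and the 5772 with a median of at least 1 CPM (counts relative to the normalized library size) were tested, the median being taken across 20 libraries. Total counts were 7265872 to 24927822 in the *ROF1* libraries and 6027147 to 35027485 over all 20. Adjusted p-values come from edgeR's quasi-likelihood test across all 5772 ORFs, an ORF was called at a false discovery rate below 0.01, and log2 fold-changes are *ROF1* strain over the strain or mean named. *ROF1* replicate 4 stood farthest from its strain mean (root mean square deviation of 0.187 on the log2 scale, against 0.107 to 0.139 for the other 3 *ROF1* libraries), and values without it are given where they matter.

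The plasmid gene was first checked in each library. *ROF1* (chromosome VIII, 456591–457952) had 22.1, 24.0, 28.8, and 27.6 CPM in the *ROF1* libraries, against a lowest of 7.90, a median of 9.18, and a highest of 11.7 CPM in the other 16. The groups were well separated, and the *ROF1* transcript was higher by 1.42 ± 0.09 (SE) on the log2 scale against the mean of the other strains (adjusted p = 2.5e-09, edgeR), with 1.34 to 1.53 against the single strains. An annotated noncoding RNA on the opposite strand of the same locus, 8R-217 (chromosome VIII, 456050–458501), rose with it, by 4.18 ± 0.23 on the log2 scale among the noncoding features (adjusted p = 6.6e-23, edgeR), on 36 to 62 raw counts per *ROF1* library and 0 to 8 in the others. The chromosomal neighbours *STB5*, which encodes a regulator of multidrug resistance and oxidative stress genes (−0.08), and *FMO1*, which encodes a flavin-containing monooxygenase (−0.05), were not called. The paralog *MIT1* had 115, 124, 130, and 119 CPM in the *ROF1* libraries and a log2 fold-change of −0.19 against the mean of the other strains (adjusted p = 0.023, edgeR). The plasmid genes of the other strains were lower against a mean that includes their own strains, by −0.36 (*HEK2*) to −0.74 (*TOS8*) on the log2 scale.

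Against the mean of the other 4 strains, 511 ORFs were called (8.85% of those tested), of which 245 were higher (4.24%) and 266 lower (4.61%) in the *ROF1* strain. The differences were small, with 23 higher and 17 lower ORFs past a fold change of 1.5. By single strains, 1789 ORFs were called against *TOS8* (31.0%), 1056 against *HEK2* (18.3%), 881 against *SFL1* (15.3%), and 17 against *SAN1* (0.295%). Higher ORFs made up 15.5% of those tested against *TOS8*, 7.69% against *HEK2*, 7.69% against *SFL1*, and 0.0347% against *SAN1*, and lower ones 15.5%, 10.6%, 7.57%, and 0.260% against the same strains. In the *SAN1* comparison, 1121 ORFs had an unadjusted p below 0.05. These comparisons share the 4 *ROF1* libraries. Of the 245 ORFs called higher against the mean, 195 had a positive log2 fold-change against each of the 4 strains, and of the 266 called lower, 203 had a negative one against each, as against 921 positive and 797 negative among all 5772 ORFs. These counts follow in part from the choice of ORFs by the mean of the same comparisons. The number of calls against the mean rested on *ROF1* libraries 1 to 3, since it was 259, 163, and 264 without replicate 1, 2, or 3 in turn, and it was 569 without replicate 4.

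**Figure D1:**
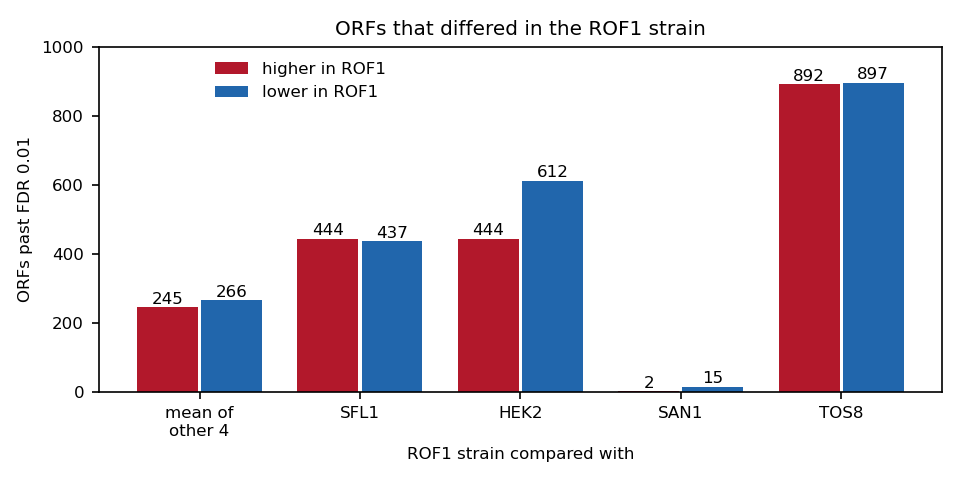
Number of ORFs called (edgeR quasi-likelihood test, false discovery rate below 0.01) for the *ROF1* strain against the mean of the other 4 strains and against each strain alone, with ORFs higher and lower in the *ROF1* strain as separate bars. The comparison with *SAN1* gave 17 calls, and that with *TOS8* gave 1789.

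Only 2 ORFs were called in the same direction against all 4 strains, *ROF1* itself, which was higher (0.0173% of ORFs), and YNL095C, which was lower (0.0173%). YNL095C (chromosome XIV, 444912–446840), an uncharacterized ORF, had 15.3, 11.9, 13.1, and 12.2 CPM in the *ROF1* libraries, against a lowest of 15.0, a median of 18.0, and a highest of 20.7 CPM in the other 16. *ROF1* replicate 1 overlapped the lowest of the other libraries and the other 3 did not. YNL095C fell by 0.45 ± 0.07 on the log2 scale against the mean (adjusted p = 0.00019, edgeR), with −0.51 against *SFL1*, −0.52 against *HEK2*, −0.48 against *SAN1*, and −0.29 against *TOS8*. YNL095C was called against all 4 strains in 5 of the 20 fits that left out 1 library and lost at least 1 of these calls in the other 15, as it did with TMM over all features and with no filter on low counts, whereas *ROF1* was called against all 4 in each of these fits. Without *ROF1* replicate 4 the *SAN1* comparison gave 116 calls, and 15 ORFs (4 higher, 11 lower, YNL095C not among them) differed the same way from all 4 strains. With all libraries and a false discovery rate below 0.05, 34 ORFs did (16 higher, 18 lower), and 9 of them were also called against all 4 strains by both the likelihood ratio test and DESeq2. These 9 were *ROF1*, *FLO11*, *NFG1*, *RPI1*, and *RQT4*, which were higher, and YNL095C, *ENB1*, *ADE2*, and *GAP1*, which were lower. Among them, Nfg1 is a negative regulator of the filamentation pathway, Rpi1 a transcription factor that acts on cell wall and Ras-related genes, and Rqt4 part of the ribosome quality control trigger complex, while Enb1 takes up iron-enterobactin, Ade2 makes purines, and Gap1 is the general amino acid permease. *RPI1* (0.55) and *RQT4* (0.31), which were chosen after their values were seen, were called against the mean, as were *ENB1* (−0.80), *ADE2* (−0.42), and *GAP1* (−0.39).

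Another way to set the strain apart is by library rather than by mean. In 54 ORFs (0.936%) the 4 *ROF1* libraries lay outside the range of the other 16, 36 above it (0.624%) and 18 below it (0.312%), and 32 and 18 of these were also called against the mean. The count below the range depended on the scaling, with 39 above and 13 below under TMM over all features, and 32 above and 6 below with library totals alone. Without *ROF1* replicate 4 the remaining 3 libraries lay outside the range in 154 ORFs, partly by construction, since 3 libraries do so more easily than 4.

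*FLO11* (YIR019C, chromosome IX, 389572–393675) had the largest rise among these. It had 12087, 12537, 12974, and 10059 CPM in the *ROF1* libraries, against a lowest of 733, a median of 5316, and a highest of 9636 CPM in the other 16. No library of another strain reached the lowest *ROF1* library. *FLO11* was higher by 1.72 ± 0.09 on the log2 scale against the mean (adjusted p = 8.0e-11, edgeR), by 3.87 against *SFL1*, 1.52 against *HEK2*, and 0.90 against *TOS8*, while the difference of 0.60 from *SAN1* was not called (adjusted p = 0.019). The repeats in *FLO11* make its counts less certain than most, since reads were not filtered on mapping quality. Of the other 4 flocculin genes, *FLO10* was called higher, with 80.9, 99.4, 98.6, and 69.8 CPM in the *ROF1* libraries and 24.5 to 105 CPM in the other 16, so that its groups overlapped. *FLO10* was higher by 0.83 ± 0.11 against the mean but by 0.00 against *TOS8*, and *FLO1* (0.08), *FLO5* (−0.08), and *FLO9* (0.01) were not called. Upstream of *FLO11*, the noncoding RNA *PWR1* was higher by 1.41 on the log2 scale (adjusted p = 2.0e-14, edgeR) and *ICR1* differed by −0.01, both looked up after other values were seen. *PWR1* was higher by 3.29 against *SFL1* and 1.62 against *HEK2*, but by 0.27 against *SAN1* and 0.47 against *TOS8*, neither of them called. Its *ROF1* libraries had 706 to 1071 CPM and overlapped the other 16, which reached 894 CPM.

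*NFG1* (YLR042C, chromosome XII, 229966–230451) had 112, 133, 147, and 110 CPM in the *ROF1* libraries, against 13.7, 42.0, and 102 CPM (lowest, median, highest) in the other 16. Its fold-changes fell into 2 steps, 2.67 against *SFL1* and 2.69 against *HEK2*, but 0.60 against *SAN1* (adjusted p = 0.034, edgeR) and 0.68 against *TOS8*. *SFG1*, which encodes a transcription factor for pseudohyphal growth, had 189, 197, 212, and 210 CPM in the *ROF1* libraries, against 67.1, 119, and 174 CPM in the others, and was higher by 0.80 ± 0.09. *BUD8*, which encodes a landmark for budding at the distal pole of the cell, had 71.5, 73.0, 77.2, and 72.0 CPM in the *ROF1* libraries, against 41.7, 50.1, and 70.1 CPM in the others, and was higher by 0.52 ± 0.06. For *SFG1* and *BUD8*, as for *NFG1*, the nearest strain was *SAN1*, with log2 fold-changes of 0.36 and 0.25 that were not called.

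Phosphate and phosphodiester genes were also among the nonoverlapping rises. *GIT1*, which encodes the glycerophosphoinositol permease, had 46.8, 52.8, 48.8, and 49.3 CPM in the *ROF1* libraries, against 8.65, 26.0, and 46.1 CPM in the other 16, and was higher by 1.02 ± 0.10 (adjusted p = 7.7e-07, edgeR). *PHO5*, the secreted acid phosphatase gene, had 144, 174, 150, and 141 CPM in the *ROF1* libraries, against 46.8, 72.6, and 137 CPM in the others, and was higher by 0.98 ± 0.17. Neither gene was called against *SAN1*, with log2 fold-changes of 0.30 (*GIT1*) and 0.41 (*PHO5*). The difference was largest against *TOS8* for *GIT1* (2.29) and against *SFL1* for *PHO5* (1.53). The rest of the phosphate starvation list did not follow, since of 27 genes 3 were called higher (*GIT1*, *PHO5*, and *PHO81*, 0.29, a cyclin-dependent kinase inhibitor) and 2 lower (*PHO3*, −0.25, and *PHO91*, −0.21), with a median of 0.05. Over all ORFs, 4.24% were called higher and 4.61% lower. *PHO84*, the high-affinity phosphate transporter gene, had a log2 fold-change of 0.12.

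The remaining nonoverlapping rises past the naming rule were *SPS4*, a sporulation-specific gene (0.82 ± 0.10), the ORF YKL202W (0.90 ± 0.21), and YGR122C-A (0.54 ± 0.08). *SPS4* had 26.5, 26.5, 26.7, and 29.5 CPM in the *ROF1* libraries, against 8.65, 15.5, and 22.8 CPM in the other 16. YKL202W had at most 2.85 CPM, overlaps YKL201C on the opposite strand, and lost its call without *ROF1* replicate 1, 2, or 3. Lower-ranked rises included *AGA1*, which anchors the mating agglutinin and had 48.0, 49.9, 52.0, and 44.1 CPM in the *ROF1* libraries against 26.5 to 42.5 CPM in the others, and *CLN1*, a G1 cyclin gene with 123, 127, 141, and 128 CPM against 72.3 to 122 CPM. None of the rises in this paragraph was called against *SAN1*.

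Falls outside the range were smaller. The largest among them was *FIT3*, a cell wall mannoprotein gene of siderophore iron uptake, with 136, 167, 175, and 162 CPM in the *ROF1* libraries, against 183, 232, and 435 CPM in the other 16, and a log2 fold-change of −0.58 ± 0.15 (adjusted p = 0.0085, edgeR). This call was lost in 12 of the fits that left out 1 library, and *FIT3* was not called against any single strain. *CLP1*, which encodes a subunit of the messenger RNA cleavage factor, had 14.0, 14.8, 17.9, and 17.5 CPM in the *ROF1* libraries, against 19.0, 21.7, and 26.5 CPM in the others, and fell by 0.46 ± 0.07. *GDH3*, which encodes the second glutamate dehydrogenase, had 1315, 1344, 1406, and 1450 CPM in the *ROF1* libraries, against 1529, 1788, and 2418 CPM in the others. *GDH3* fell by 0.40 ± 0.08 against the mean and was 1 of the 15 ORFs called lower against *SAN1* (−0.51). Further falls outside the range, by log2 fold-change against the mean, were *RPP1B* (−0.39, a ribosomal stalk protein), *LAC1* (−0.38, ceramide synthase), *YMC2* (−0.38, a mitochondrial carrier), *DFG5* (−0.37, a cell wall enzyme needed for filamentous growth), *GCD7* (−0.37, a subunit of the translation initiation factor eIF2B), *POP1* (−0.32, RNase P and MRP), and *CPR3* (−0.31, mitochondrial cyclophilin). The other 8 ORFs below the range had smaller log2 fold-changes, of −0.18 (*MRX14*) to −0.28 (*THR4*).

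**Figure D2:**
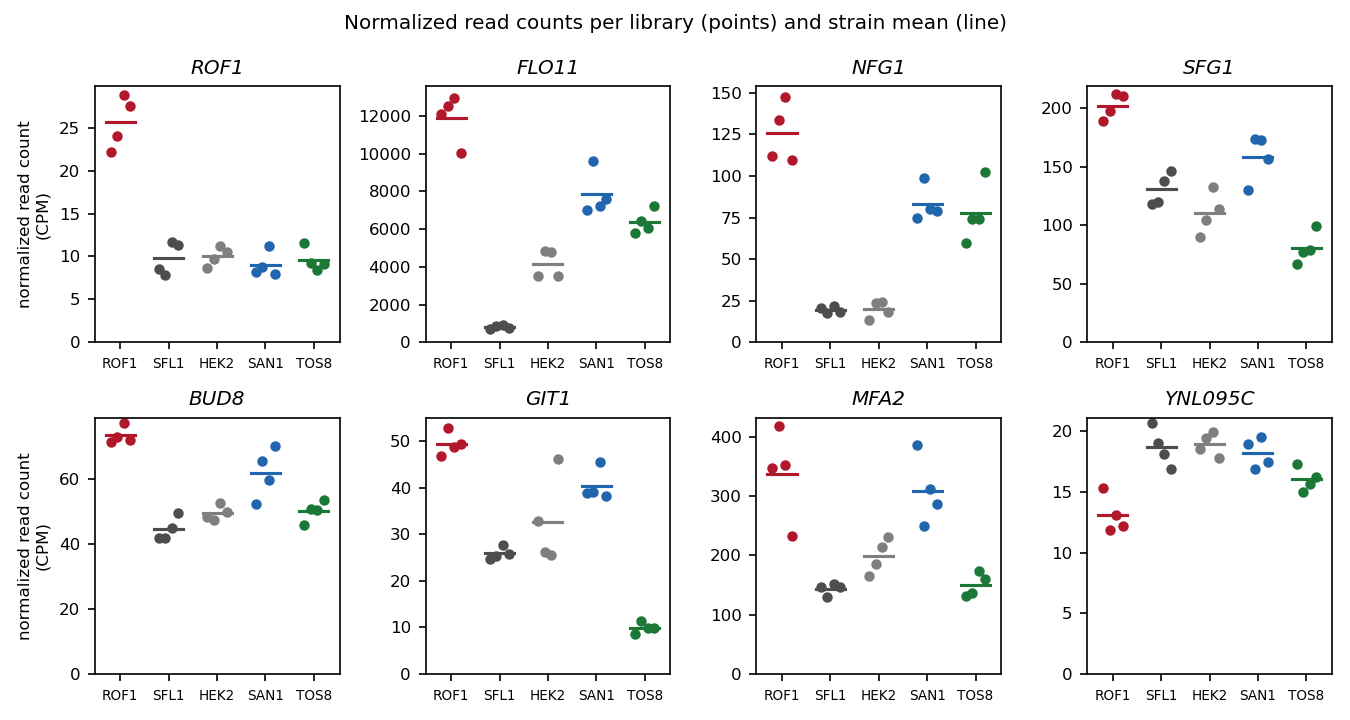
Normalized read counts (CPM, linear axes from 0) of 8 genes, with the strains along the horizontal axis, points for single libraries, and lines for strain means. *FLO11* lies at 10059 to 12974 CPM in the *ROF1* strain, above each of the other 16 libraries, and YNL095C lies lowest in it.

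**Figure D3:**
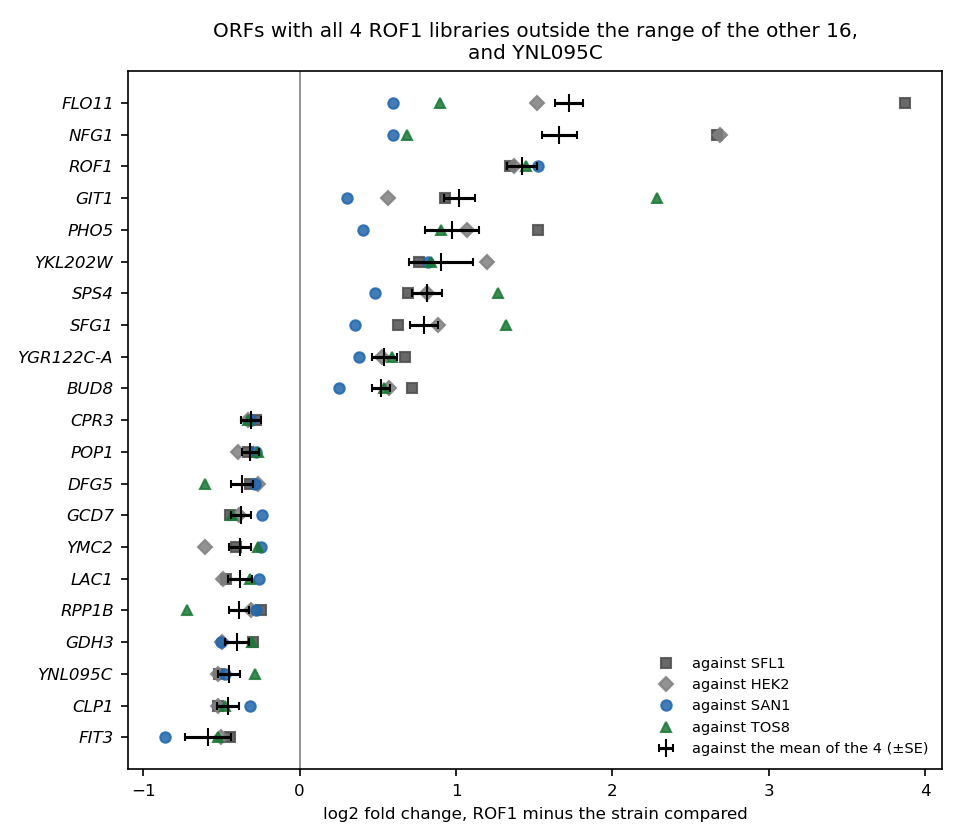
Log2 fold-changes of the *ROF1* strain against each of the other strains for 20 genes chosen for *ROF1* libraries outside the range of the other 16, and for YNL095C. Each row is a gene, symbols give the log2 fold-change against 1 strain, and black ticks with bars give that against the mean with its SE. *FLO11* runs from 0.60 (*SAN1*) to 3.87 (*SFL1*), and the falls all lie within 1 unit of 0.

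Genes of the filamentation and pheromone pathways held several called members, to be read against the 4.24% of all ORFs called higher. In the filamentation MAPK list, 7 of 17 genes tested were called higher and none lower, with a median of 0.12 against 0.00 over all ORFs. The count was also 7 in each fit that left out 1 library. Against *TOS8* alone, however, 6 were higher and 4 lower, with a median of 0.02. They were *FLO11* itself, *TEC1*, *KSS1* (0.49, the kinase of the pathway), *MSB2* (0.50, its mucin sensor), *STE12* (0.34), *SVS1* (0.57, a cell wall protein), and *CLN1* (0.46). *TEC1* had 52.1, 65.0, 69.6, and 62.6 CPM in the *ROF1* libraries, against 31.7, 43.5, and 65.0 CPM in the other 16, and was higher by 0.45 ± 0.06 (adjusted p = 9.1e-05, edgeR). That difference came from 2 of the strains, with 0.75 against *SFL1* and 0.83 against *HEK2*, but 0.22 against *SAN1* and 0.02 against *TOS8*, neither of them called. A noncoding RNA just upstream of *TEC1*, 2F-170 (chromosome II, 408247–408769), was higher by 1.51 ± 0.11 on the log2 scale (adjusted p = 2.3e-17, edgeR). For 2F-170 the log2 fold-change was 2.69 against *SFL1*, 2.46 against *HEK2*, 0.67 against *SAN1*, and 0.21 against *TOS8*, the last not called. Its lowest *ROF1* library (1252 CPM) lay below the highest of the other 16 (1380 CPM).

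In the pheromone and mating list, 11 of 32 genes were called higher and none lower, with a median of 0.23. *MFA2*, which encodes the a-factor precursor, had 348, 418, 353, and 233 CPM in the *ROF1* libraries, against 129, 169, and 386 CPM in the other 16. *BAR1*, which encodes the protease that degrades alpha-factor, had 24.5, 30.9, 30.4, and 22.9 CPM in the *ROF1* libraries, against 8.39, 13.2, and 32.9 CPM in the others. Both overlapped the other libraries and both were higher by 0.83 on the log2 scale (SE 0.11 and 0.09). *PRM5*, a pheromone-regulated membrane protein gene (0.70), *AGA2* (0.62), *FUS1* (0.50, cell fusion), *AGA1* (0.48), *SST2* (0.39, which damps the signal), *SCW10* (0.39), *STE2* (0.38, the alpha-factor receptor), *MFA1* (0.35), and *STE6* (0.26, the a-factor exporter) were the other 9, while *PRM1* (0.45, membrane fusion) and *FIG2* (−0.10) were not called. The count was 7 to 12 in the fits that left out 1 library, with 7 without *ROF1* replicate 1 or replicate 2. Against *SAN1* alone, none of the 32 pheromone genes and none of the 17 filamentation genes was called, and *MFA2* differed by 0.13 and *BAR1* by 0.04.

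Because the members called in these lists included known Ste12 targets, 300-base windows of the R64 reference were searched. They ran from 250 bases before to 50 after the annotated start of each ORF. Both strands were searched for the Ste12 core TGAAACA. It was in 7.26% of the 5772 windows, in 11 of 18 windows of called members of the 2 lists (61.1%), and in 11 of 31 windows of members not called (35.5%). The 6-base Tec1 motif (CATTCT or CATTCC) was in 27.7% of all windows and 36.7% of those of all ORFs called higher, but in 4 of the 18 windows of called members of the 2 lists (22.2%), in 11 of 31 of members not called (35.5%), and in 28.1% of called ORFs above the range of the other libraries. A core of the WOPR family as known from *C. albicans* Wor1, TTAAAGTTT, was in 0.78% of all windows, in 3 of the 245 of ORFs called higher, and in 2 of the 266 of ORFs called lower. The Ste12 core ends in the letters with which the Tec1 motif begins, so matches of the 2 can share bases, and a match is a description of the window only. Stretches from 250 to 86 bases before the start are shown for 3 genes with the Ste12 core in capitals. *NFG1* is shown with the Tec1 motif in capitals (reverse strand, AGAATG). The genes shown all hold their motif and do not stand for the rises as a whole. The windows of *FLO11*, *PHO5*, *SPS4*, and *CLN1* held none of these motifs.
MFA2 (chrXIV:352164-352328, plus strand): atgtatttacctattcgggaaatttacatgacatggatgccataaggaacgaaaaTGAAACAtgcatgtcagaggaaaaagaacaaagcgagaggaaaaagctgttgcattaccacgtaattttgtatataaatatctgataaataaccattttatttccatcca
BAR1 (chrIX:322092-322256, plus strand): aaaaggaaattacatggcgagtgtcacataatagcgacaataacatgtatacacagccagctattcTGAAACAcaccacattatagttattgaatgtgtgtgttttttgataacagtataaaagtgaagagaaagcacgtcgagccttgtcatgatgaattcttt
TEC1 (chrII:408919-409083, plus strand): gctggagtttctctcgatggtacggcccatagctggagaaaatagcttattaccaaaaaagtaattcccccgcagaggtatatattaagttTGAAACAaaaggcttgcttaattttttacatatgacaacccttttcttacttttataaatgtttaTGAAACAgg
NFG1 (chrXII:230537-230701, minus strand): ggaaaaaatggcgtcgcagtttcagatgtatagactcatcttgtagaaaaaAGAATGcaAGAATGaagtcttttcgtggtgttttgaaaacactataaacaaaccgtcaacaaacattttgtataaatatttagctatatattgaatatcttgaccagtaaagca
*TEC1* holds the Ste12 core 2 times and *MFA2* and *BAR1* hold it 1 time each in the stretch shown, and *NFG1* holds the Tec1 motif 2 times, 2 bases apart.

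Amino acid and one-carbon lists held many genes called lower, to be read against 4.61% of all ORFs. Of 59 genes of amino acid synthesis other than arginine and sulfur pathways, 22 were called lower and 2 higher (median −0.23), and of 9 arginine genes 4 were called lower (*ARG7* and *ARG1* among them, median −0.31). Of 32 sulfate and methionine genes 9 were lower (median −0.16), and of 31 one-carbon and purine genes 11 were lower (median −0.19), with none higher in either. *SHM2*, which encodes the cytosolic serine hydroxymethyltransferase, had 723, 693, 862, and 992 CPM in the *ROF1* libraries, against 822, 1286, and 1637 CPM in the other 16. *SHM2* fell by 0.57 ± 0.10 (adjusted p = 0.00042, edgeR) and was also called against *SAN1* (−0.68), but differed by −0.12 from *TOS8*. *MTD1*, of the same one-carbon route, had 95.5, 88.6, 98.8, and 131 CPM in the *ROF1* libraries, against 98.7, 151, and 201 CPM in the others, fell by 0.47, and was called against *SAN1* (−0.60).

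*HIS4*, a histidine enzyme gene, had 297, 268, 294, and 362 CPM in the *ROF1* libraries, against 176, 473, and 834 CPM in the other 16. It fell by 0.45 ± 0.09 against the mean but in no uniform way, with −1.28 against *HEK2*, −0.74 against *SFL1*, −0.45 against *SAN1* (not called, adjusted p = 0.026, edgeR), and 0.67 against *TOS8*. The *TOS8* libraries were the lowest for *HIS4*, below the *ROF1* ones. *ARG7*, which makes ornithine in the mitochondrion, had 44.6, 45.3, 53.5, and 52.5 CPM in the *ROF1* libraries, against 49.4, 70.3, and 100 CPM in the others, and fell by 0.55 ± 0.07. *ADE2* had 146, 130, 151, and 182 CPM in the *ROF1* libraries, against 180, 199, and 246 CPM in the others, so that 1 *ROF1* library overlapped them. *CYS3* (−0.46, cysteine synthesis), *SAM1* (−0.44) and *MET6* (−0.42, methionine cycle), and *ARO2* (−0.41, aromatic amino acids) were further examples, and *HIS3* (−0.54) overlaps another ORF on its own strand, so that its counts are uncertain. Without *ROF1* replicate 2, these counts of lower genes fell to 7 for other amino acids, 1 for arginine, 2 for sulfate and methionine, and 3 for one-carbon and purine genes, with medians of −0.21, −0.30, −0.16, and −0.15. *GCN4*, the activator of amino acid genes, had a log2 fold-change of 0.00.

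The Gcn4 core TGACTC was in 8.28% of all windows, in 25 of 46 windows of called members of these 4 lists (54.3%), in 32 of 85 windows of members not called lower (37.6%), and in 17.3% of windows of all ORFs called lower. Stretches before 2 of the genes with larger falls are shown with this core in capitals.
HIS4 (chrIII:68419-68583, minus strand): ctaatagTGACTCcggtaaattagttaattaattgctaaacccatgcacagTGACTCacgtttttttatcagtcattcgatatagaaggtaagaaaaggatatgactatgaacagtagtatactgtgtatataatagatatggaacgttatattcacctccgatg
SHM2 (chrXII:259487-259651, minus strand): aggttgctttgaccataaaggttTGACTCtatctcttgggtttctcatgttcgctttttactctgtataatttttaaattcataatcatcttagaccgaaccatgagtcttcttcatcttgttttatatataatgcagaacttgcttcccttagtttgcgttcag
*HIS4* holds it 2 times and *SHM2* holds it 1 time in the stretch shown.

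Ribosomal protein genes were lower in part of the libraries. Of 56 small subunit genes 16 were called lower and of 82 large subunit genes 23, with none higher and medians of −0.18 and −0.19. The share called lower over all ORFs was 4.61%. The median log2 level of the large subunit genes relative to the mean of all 20 libraries was −0.149, −0.265, −0.221, and 0.0114 in the *ROF1* libraries, against a lowest of −0.122, a median of 0.0524, and a highest of 0.170 in the other 16. Replicate 4 thus lay among the other strains and the other 3 *ROF1* libraries below them. Without replicate 4 the large subunit count was 43 and the small subunit count 28, while without replicate 2 each was 5. Without replicate 1 or 3 the large subunit count was 7 or 9. *RPS29B* had 306, 294, 321, and 373 CPM in the *ROF1* libraries, against 370, 429, and 495 CPM in the others (log2 fold-change −0.40), and *RPL37A* fell by 0.43. Both belong to paralog pairs whose counts could be split unevenly.

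Against single strains, these groups did not separate from *SAN1* by calls. Against *SAN1*, the median log2 fold-change was −0.19 to −0.22 in the ribosomal lists with no gene called, and 2 genes were called lower in each of the lists of other amino acids and of one-carbon and purine synthesis. Against *TOS8*, the other amino acid list had 15 genes higher and 8 lower, and its median level was −0.196, −0.229, −0.129, and −0.0800 in the *ROF1* libraries, against −0.267 to −0.178 in *TOS8*, 0.0221 to 0.0909 in *SAN1*, and 0.0605 to 0.318 in *SFL1* and *HEK2*. The lower level of these genes thus held against 3 of the 4 strains. The filamentation list had levels of 0.104 to 0.173 in the *ROF1* libraries, against −0.246 to 0.141 in the others, where the upper end overlapped. The nitrogen catabolism list (6 of 36 lower, median −0.11, among them *CAR2* and *GAP1*), the sterol and hypoxia list (7 of 37 lower, median −0.14, among them *ERG13* and *ANB1*), and the glycolysis list (5 of 25 lower, median −0.14) had smaller shares. These counts also rested on single libraries, with 1 gene called in the nitrogen list without *ROF1* replicate 1, and 1 in the sterol list and 2 in the glycolysis list without replicate 2. With all libraries, 4.61% of all ORFs were called lower.

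**Figure D4:**
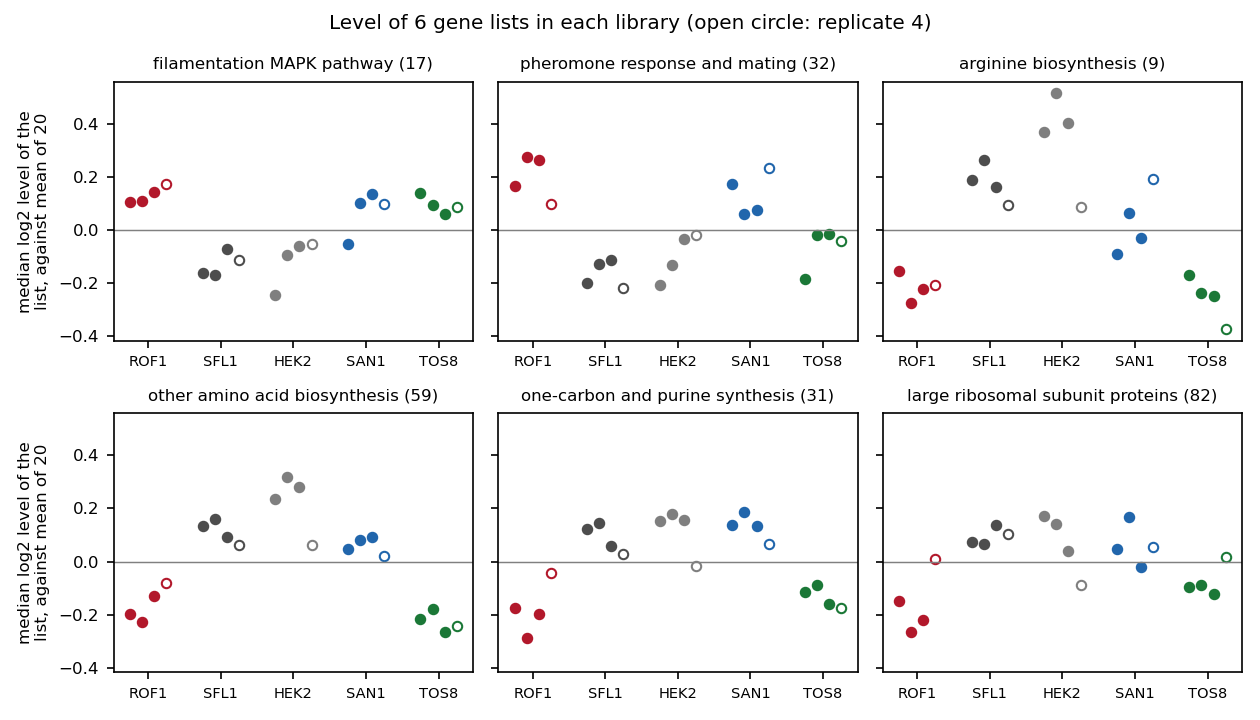
Median log2 level of 6 gene lists in each library relative to the mean of all 20 libraries, by strain, with replicate 4 of each strain as an open circle and the number of genes tested in each title. The *ROF1* libraries lie high for filamentation genes, as do those of *TOS8* (0.0591 to 0.141), and for pheromone genes, as do those of *SAN1* (0.0602 to 0.235). They lie low for the other lists, except replicate 4 for large ribosomal subunit genes (0.0114). The *TOS8* libraries are also low for arginine (−0.373 to −0.171), other amino acid (−0.267 to −0.178), and one-carbon genes (−0.176 to −0.0873). For one-carbon genes *ROF1* replicate 4 (−0.0446) lies above them.

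**Figure D5:**
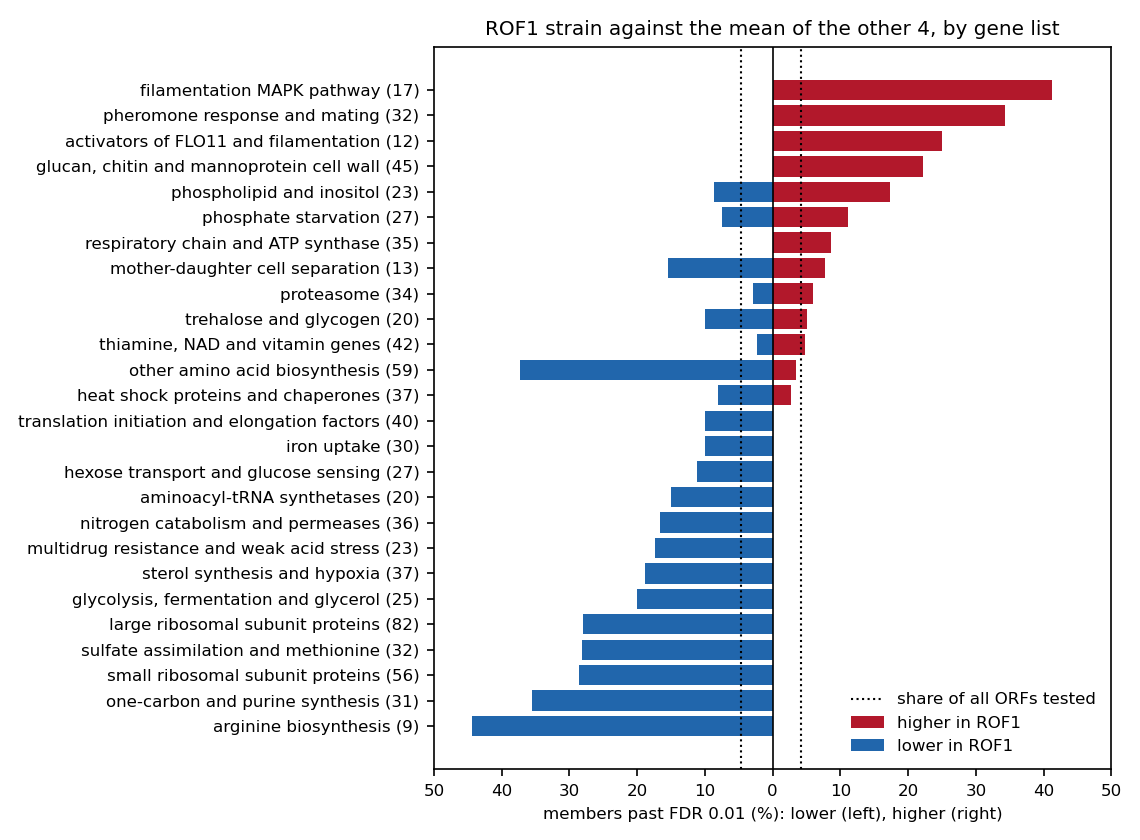
Percent of the members of a gene list called higher (right) or lower (left) in the *ROF1* strain against the mean of the other 4. Dotted lines mark the share over all ORFs (4.24% higher, 4.61% lower). Lists with few genes tested or few called members are not shown. Pheromone and filamentation lists extend to the right, and amino acid and ribosomal protein lists to the left.

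The comparison with *SAN1*, the strain with the fewest calls, had 2 ORFs higher and 15 lower. *ROF1* (1.53) and the uncharacterized YER079W (0.36) were the higher ones. Of the lower ones, *SAN1* itself (−1.38) and its neighbour *MKC7* (−1.77, a cell surface aspartyl protease gene) lie next to each other in the genome. *MKC7* had 54.1, 47.9, 55.4, and 67.1 CPM in the *ROF1* libraries, against 174 to 214 CPM in the *SAN1* libraries. The other 13 were *SHM2*, *MTD1*, *CTP1* (−0.56, mitochondrial citrate carrier), *GDH3*, YNL095C, *NIP7* (−0.47, ribosome assembly), *ARN1* (−0.42, siderophore uptake), *LYS20* (−0.41, lysine synthesis), *DUT1* (−0.40, dUTP pyrophosphatase), *NAR1* (−0.40, iron-sulfur protein assembly), *VHT1* (−0.39, biotin uptake), *TOM6* (−0.37, mitochondrial import), and *MEP3* (−0.36, ammonium uptake). These are all the calls of the comparison, and most rested on single libraries, since the count was 4, 3, and 4 without *ROF1* replicate 1, 2, or 3, 116 without replicate 4, and 3 to 21 without 1 *SAN1* library.

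*INO1*, which encodes the first enzyme of inositol synthesis, shows how far a rise could depend on single libraries. It had 1074, 1389, 1007, and 391 CPM in the *ROF1* libraries, against 144, 229, and 1475 CPM in the other 16, and was higher by 1.44 ± 0.29 against the mean (adjusted p = 0.0018, edgeR), with 2.42 against *SFL1*, 2.49 against *HEK2*, and −0.18 against *TOS8*. Its call was lost without *ROF1* replicate 2 (adjusted p = 0.024). Of the 23 phospholipid and inositol genes, 4 were called higher and 2 lower (median 0.05), but 1 was higher without *ROF1* replicate 2. Among the higher ones was *CPT1* (0.35, choline phosphotransferase). Of 45 genes of the cell wall list 10 were called higher, including *SED1* (0.40), a major structural wall protein, and *CRR1* and *SCW10*, with none lower, but the count was 2 without *ROF1* replicate 2. Of 13 genes of mother-daughter separation, *AMN1* (0.39) was called higher, and *PRY3* (−0.88) and *DSE4* (−0.57) lower. These list counts are to be read against the 4.24% of all ORFs called higher and the 4.61% called lower.

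Among the 4007 other features tested, which are noncoding RNAs and nonreference transcripts, 76 were called against the mean (1.90%), of which 52 were higher (1.30%) and 24 lower (0.599%). After 8R-217 and 2F-170, the next largest rise was MUT1143.1 (1.45 ± 0.14), with 0.44 against *TOS8*, which was not called. The largest falls were ST5222, opposite *STB5* (−2.69 ± 0.55), 12R-348 (−1.94 ± 0.46), and 16F-100 (−1.69 ± 0.38). These falls rest on few reads, since CPM here are relative to the small total of other features. ST5222 had 0, 13.0, 8.04, and 0 CPM in the *ROF1* libraries, against 12.9 to 86.3 CPM in the other 16. It was not called against *SAN1* (adjusted p = 0.13, edgeR). Neither 12R-348 nor 16F-100 was called against *TOS8*, and their *ROF1* libraries overlapped the other 16. No function is given for these features.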

How the data were processed

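Paired 51-nucleotide stranded reads were mapped by the authors (Bowtie2 version 2.1.0) to S288c R64-1-1, to which noncoding RNAs and F45 genes had been added. The authors deposited unnormalized, strand-specific featureCounts (version 1.4.0) counts of 12131 features, and reads were not selected by mapping quality. Counts of paralogs and repeats, such as those of ribosomal proteins and *FLO11*, are therefore uncertain. ORFs and other features were analysed separately. Those with a median of at least 1 CPM were kept, library sizes were normalized by TMM, and all 20 libraries entered 1 fit with a mean per strain in edgeR (version 4.0.16, limma 3.58.1, R 4.3.3). Contrasts were tested by the quasi-likelihood test with Benjamini-Hochberg adjustment. CPM values of other features are relative to the total of those features alone.

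The strain, the gene lists, and the named genes were chosen with earlier results of these data known. Named genes were the plasmid genes, *MIT1*, *FMO1*, *STB5*, *FLO11*, *TEC1*, ORFs called the same way against all 4 strains, the 10 largest rises and 10 largest falls among called ORFs with *ROF1* libraries outside the range of the other 16, up to 3 called and 2 uncalled members of each list described, and 3 rises and 3 falls of other features. Genes outside the rule (*RPI1*, *RQT4*, *GCN4*, *PHO84*, the remaining calls against *SAN1*, and further called list members) were picked after values were seen. List levels are medians of log2(CPM + 0.5). Promoter windows came from the R64 RefSeq genome and were placed by the feature coordinates deposited with the counts. Of the 5772 windows, 5744 had ATG at the start so given. Pairs of *ROF1* libraries differed by 11.8 to 43.2 times the counting error, so none is a copy of another. Deviations from strain means of same-numbered *ROF1* and *SFL1* libraries correlated by 0.159 to 0.434, each over 0.1. Libraries with unlike numbers were not compared, so this does not show that the numbers pair the libraries. The main fit held no block for them. With the other strains some pairs were at or below 0.1. Total counts ranged from 6027147 to 35027485 per library. Scripts were checked on simulated counts with known changes. Alternatives were other tests, normalizations, filters, and thresholds, a block for replicate number, and leaving out each library.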

Additional observations from a re-analysis of the deposited data

Results flagged for a closer look

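Of 145 groups of 4 libraries examined (29 named genes in 5 strains), 5 had 1 library far from the other 3 by Dixon's criterion, where chance gives about 1 in 20. Among the *ROF1* libraries this held for *SPS4* in replicate 4, with 29.46 CPM against 26.54 to 26.73 CPM in the other 3. Among the other strains, *PHO5* had 137.3 CPM in *HEK2* replicate 4 (46.81 to 51.65 CPM in the other 3), *GIT1* had 45.59 CPM in *SAN1* replicate 3 (38.29 to 38.99 CPM), *CLP1* had 26.48 CPM in *SFL1* replicate 1 (21.26 to 21.96 CPM), and *FMO1* had 26.21 CPM in *TOS8* replicate 1 (28.98 to 29.53 CPM). For *PHO5* the *HEK2* library was the highest of the 16 and set the narrow gap to the lowest *ROF1* library.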

How the results depend on the processing

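At a false discovery rate below 0.05, the calls numbered 1143 against the mean, 1603 against *SFL1*, 1825 against *HEK2*, 233 against *SAN1*, and 34 the same way against all 4 strains. With a fold change above 1.5 as well they were 40, 182, 211, and 5 in the first 4 of these, 369 against *TOS8*, and 1 against all 4. The *SAN1* comparison gave 114 calls by the likelihood ratio test, 157 by DESeq2 (version 1.42.0), and 3 in a fit of only the 8 libraries compared, and *HEK2* gave 495 in such a fit. ORFs called against all 4 strains were 11 by the likelihood ratio test, 19 by DESeq2, and 1 each with TMM over all features and with no filter on low counts. Against the mean of *SFL1*, *HEK2*, and *SAN1*, 748 ORFs were called. Leaving out 1 library, the calls ranged over 163 to 681 (mean), 518 to 1010 (*SFL1*), 620 to 1231 (*HEK2*), 3 to 116 (*SAN1*), and 1405 to 1912 (*TOS8*). The counts were 1 to 15 for all 4 strains and 54 to 154 outside the range of the other libraries. Other features, for which only *ROF1* libraries were left out in turn, gave 37 to 72 calls. The *ROF1* transcript ranged over 1.35 to 1.48 in the fits without 1 library. The *SAN1* count was also 58 without *HEK2* replicate 4. Of the 120 named ORFs that were called, 59 were called in each of these fits and 61 lost the call in at least 1. *FMO1*, not called, ranged from −0.081 (without *ROF1* replicate 4) to 0.00087 (without replicate 1). With replicate number as a block, the *SAN1* comparison gave 9 calls and the comparison with the mean 602, and 3 named genes (*FIT3*, *ARN1*, and *SNZ3*) lost the call. In the *SFL1* comparison, where each same-numbered pair correlated by over 0.1, the block gave 947 calls, against 881 without it. For *HEK2*, *SAN1*, and *TOS8* the pairs correlated by −0.37 to 0.43, and what the number marks is not known. The cause of these shifts was not tested. Over the scalings tried, the median of all ORFs moved by less than 0.01 on the log2 scale. Depth limits low genes such as YKL202W.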

Other observations

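Among gene groups not described above, the 2 orthodox aquaporin genes were higher in the *ROF1* strain, *AQY1* by 0.68 and *AQY2* by 0.61 on the log2 scale against the mean of the other strains, mainly through *SFL1* (2.44 and 2.04), with −0.09 and −0.04 against *SAN1*. *AQY3*, an aquaglyceroporin gene, fell by 0.34, a call lost in 14 of the fits without 1 library. *AQY2* overlaps another annotated ORF on its own strand, so its counts are uncertain. Of 35 genes of the respiratory chain and ATP synthase, 3 were called higher (*QCR7*, 0.33; *QCR6*, 0.28; *ATP14*, 0.27) and none lower. That is 8.57% of the list, and 4.24% of all ORFs were called higher. Of 12 activators of *FLO11*, *STE12*, *TEC1*, and *PHD1* (0.66) were called higher, and *PHD1* overlaps another annotated feature on its own strand. *SUC2*, the invertase gene, was higher by 0.51.

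Of 23 genes of multidrug resistance and weak acid stress, 4 were called lower (*PDR5*, −0.69; *PDR12*, −0.40; *SNQ2*, −0.36; *TPO2*, −0.24), with none without *ROF1* replicate 2. Over all ORFs, 4.61% were called lower and 4.24% higher. Of 37 heat shock and chaperone genes, 3 were lower (*SSA2*, −0.54; *SSA1*, −0.39; *SSB1*, −0.24) and *CDC37* was higher (0.20). Against *TOS8* alone 26 were lower (median −0.54), while the medians were 0.11 against *HEK2*, 0.08 against *SAN1*, and −0.02 against *SFL1*. None was called against *SAN1*. The *SSA1* call was lost in 7 of the fits without 1 library. The hypoxic genes *ANB1* (−0.88), *AAC3* (−0.74), and *DAN4* (−0.94) fell most among the lists of their kind. Each of these calls was lost without *ROF1* replicate 2 or 3, and that of *ANB1* also without replicate 1. The list of TIR and DAN anaerobic mannoprotein genes had medians of −0.67 against *SFL1* and −0.35 against *HEK2*. Its medians were −0.01 against *SAN1* and 0.45 against *TOS8*. Against the mean, none of the histone, zinc response, PIR cell wall protein, or peroxisomal genes was called at a false discovery rate below 0.01 in edgeR. Against single strains some were, though no histone gene. Against *HEK2*, 5 genes of the fatty acid oxidation and peroxisome list were higher and none lower, and 2 zinc response genes were lower and none higher.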
